A study of Mus musculus with 9 samples.

Results

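The 26S proteasome is the main protease of the cytosol and nucleus of mouse cells, and its mRNAs were followed here in CD11b+ cells of the spleen. The probe sets were chosen by name: every probe set of the array that carries a single gene symbol starting with Psma, Psmb, Psmc, Psmd, Psme, Psmf or Psmg, without Psmb8, Psmb9 and Psmb10, the interferon-inducible catalytic subunits. No measured value entered that rule. It found 55 of the 12488 probe sets on the array, which stand for 43 of 8252 genes with a single symbol. By their known roles 41 of the 43 genes are subunits, activators or assembly factors of the proteasome. The other two share only the prefix: Psmc3ip encodes a meiotic recombination factor, and Psme3ip1 a nuclear protein that binds the activator subunit Psme3.

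CD11b is integrin alpha M, which marks neutrophils, monocytes, macrophages and some other leukocytes. The cells were sorted from spleens of female mice 8 to 12 weeks old, and 5 ug of their RNA were labelled for each Affymetrix MG-U74Av2 array. There were 9 arrays: 3 of cells from tumor-free mice, 3 of cells from tumor-bearing mice at time 0, called fresh here, and 3 of tumor-bearing cells kept for 24 h in complete medium, called cultured here. The labels name neither the tumor nor the mouse strain, no tumor-free cells were cultured, and all groups share the sort. The labels do not state whether replicates are separate mice, pools or repeated preparations, so a p-value here reflects the spread among samples alone, and that spread may be technical.

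A substrate marked with ubiquitin is bound and unfolded by the 19S regulatory particle and cut inside the 20S core particle. The core is a stack of rings, outer rings of alpha subunits that gate the entrance and inner rings of beta subunits, of which Psmb5, Psmb6 and Psmb7 carry the constitutive active sites. The 19S particle has a base with ATPases (Psmc genes) and a lid with a deubiquitinase (Psmd14), while Psme1, Psme3 and Psme4 encode other caps of the core, known as PA28 alpha, PA28 gamma and PA200. In myeloid cells the proteasome also makes peptides for MHC class I, and interferon-gamma is known to induce Psme1 along with Psmb8, Psmb9 and Psmb10.

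Promoters are shown for Psme1, Psmb5 and Psma1, the genes whose signal passed the test between cultured and fresh cells below. Each line gives the 250 bases upstream of the start in the gene's own 5′ to 3′ direction, from RefSeq on GRCm38.p6. The Psme1 window lies at chr14:55578244-55578493 on the plus strand, that of Psmb5 at chr14:54617996-54618245 on the minus strand and that of Psma1 at chr7:114276117-114276366 on the minus strand. Capitals mark matches, on either strand, to TGACNNNGC (the core of the antioxidant response element), CCAAT (the CCAAT box) or GAAANNGAAA (the core of the interferon-stimulated response element).
Psme1: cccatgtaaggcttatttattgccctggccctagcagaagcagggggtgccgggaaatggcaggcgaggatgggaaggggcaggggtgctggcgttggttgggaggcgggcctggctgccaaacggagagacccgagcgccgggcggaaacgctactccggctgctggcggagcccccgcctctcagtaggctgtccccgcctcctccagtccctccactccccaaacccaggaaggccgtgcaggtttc
Psmb5: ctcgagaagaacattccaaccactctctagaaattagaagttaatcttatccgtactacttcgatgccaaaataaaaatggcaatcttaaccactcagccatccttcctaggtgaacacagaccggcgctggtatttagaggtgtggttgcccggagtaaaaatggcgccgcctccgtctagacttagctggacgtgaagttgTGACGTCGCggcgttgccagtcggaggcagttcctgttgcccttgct
Psma1: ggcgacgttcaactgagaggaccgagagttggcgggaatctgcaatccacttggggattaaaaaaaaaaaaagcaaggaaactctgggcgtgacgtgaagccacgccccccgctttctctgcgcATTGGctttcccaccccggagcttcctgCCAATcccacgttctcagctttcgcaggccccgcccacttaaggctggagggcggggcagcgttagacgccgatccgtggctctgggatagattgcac
The Psmb5 promoter held TGACNNNGC 47 bases before the start. The Psma1 promoter held CCAAT on both strands, 126 and 98 bases before the start. In the Psme1 window none of the 3 motifs was found, which says only that these letters are not in it. Promoters were at hand for 36 of the 43 genes, 39 promoters in all. TGACNNNGC stood in 5 of them (12.8%), against 10.2% of 32851 promoters of all genes. CCAAT stood in 14 (35.9%, against 33.8%), and GAAANNGAAA in 3 (7.69%, against 2.98%). The carriers of TGACNNNGC were Psmb5, Psmb6, Psmc6, Psmd12 and Psmd9, and those of GAAANNGAAA were Psmb3, Psmd4 and Psmd9. A match is a run of letters, and binding was not measured.

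Values are MAS5 signals, a scaled brightness per probe set. Differences are on the scale log2(signal + 7.83), which understates those of dim genes. They come from a single limma fit of all 9 arrays, and a probe set is called where its Benjamini-Hochberg adjusted p over the 8695 probe sets tested lies under 0.05. Of the 55 probe sets, 49 were bright enough to be tested, and they cover 40 genes. The 6 others were the only probe sets of Psmc4, Psmg2 and Psmc3ip and further probe sets of Psmb4, Psmc5 and Psme1, with signals from 0.63 to 28.7. A gene is represented by its brightest probe set.

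The arrays tumor-free 1, fresh 3 and cultured 3 were the least like the rest of their groups. Across probe sets the other pair of each group correlated at r = 0.957, 0.949 and 0.929, and the divergent array correlated with it at 0.823 to 0.827, 0.874 to 0.900 and 0.850 to 0.869. The arrays were also split into 2 classes at the median of their bacterial spike-in signal. Tumor-free 2, tumor-free 3, fresh 3 and cultured 3 made the low class. The cut fell between fresh 1 (mean log2 signal 7.65) and tumor-free 2 (7.53), while fresh 3 and cultured 3 were at 6.81 and 6.63. The beta-actin 3′ to 5′ ratio, a sign of RNA integrity and labelling, was 2.57, 0.994 and 1.19 on the tumor-free arrays, 1.59, 1.58 and 1.35 on the fresh and 2.27, 2.36 and 1.16 on the cultured arrays. It was higher on cultured 1 and 2 than on every fresh array, and lower on cultured 3, and its part in the results was not tested. The CD11b gene itself, Itgam, had signals of 244 to 373 on the tumor-free arrays, 392 to 585 on the fresh and 333 to 954 on the cultured arrays.

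Relative to each gene's own mean over the 9 arrays, the proteasome genes had their lowest medians on the fresh and their highest on the cultured arrays. The median deviation of the 40 genes was 0.04, 0.05 and -0.07 on the 3 tumor-free arrays, -0.23, -0.32 and -0.25 on the fresh arrays and 0.25, 0.10 and 0.69 on the cultured arrays. All 3 fresh medians were thus below all others, while the cultured arrays differed widely from each other. Over all probe sets tested the same medians were -0.02, -0.04 and 0.06 on the tumor-free, 0.03, 0.06 and -0.14 on the fresh and 0.09, 0.04 and -0.01 on the cultured arrays. Set against these, the order did not hold array by array: fresh 3 was no longer below tumor-free 3, and cultured 2 was no longer above tumor-free 1 and 2.

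**Figure D1:**
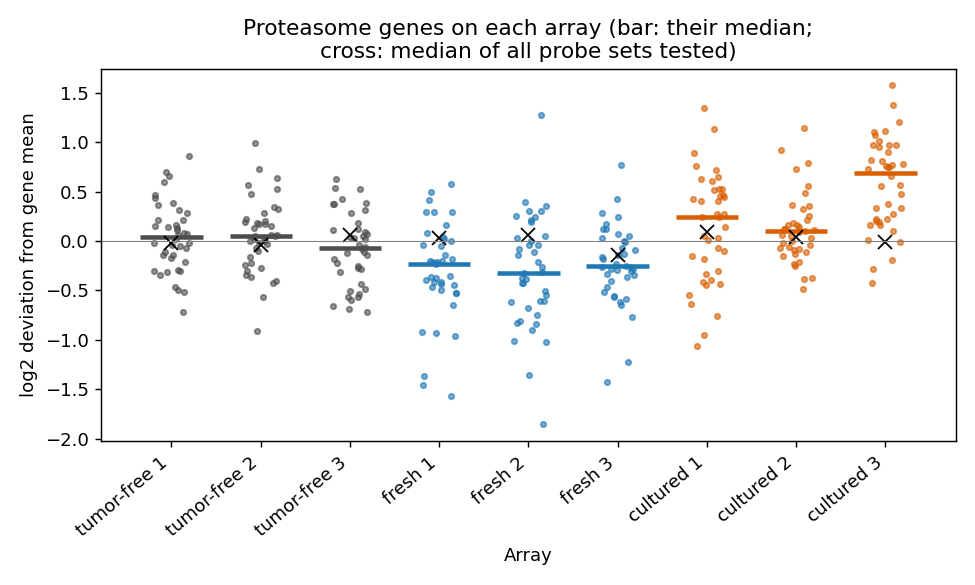
Deviation of each of the 40 tested proteasome genes from its own mean over the 9 arrays (log2 scale, 1 point per gene), by array, with the median of the genes and the median of all probe sets tested marked. The fresh arrays have the lowest medians (-0.23, -0.32 and -0.25) and cultured 3 the highest (0.69).

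The first comparison, fresh cells of tumor-bearing against cells of tumor-free mice, asks how CD11b+ cells differ in a mouse with a tumor. No proteasome probe set was called: 0 of 49, against 1.9% of all probe sets tested (0.943% higher and 0.955% lower), by limma's moderated test. At an unadjusted p under 0.05, 8 were lower and 0 higher, where 9.66% of all were lower and 7% higher. The difference was above 0 for 13 of the 49 probe sets (26.5%, against 50.6% of all) and below 0 for 36, with a median of -0.17 against 0.01 over all. In 12 of them (24.5%, against 13.1% of all) every fresh array lay below every tumor-free array, and in 0 was it the other way round (9.34% of all). In sorted bulk cells, fewer cells of a type and less RNA per cell cannot be told apart.

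The lower values came from several parts of the complex. All 5 tested ATPases of the base lay below 0, with a median of -0.25 and a range from -0.72 for Psmc6 to -0.15 for Psmc3. So did 6 of the 7 alpha subunits (median -0.18) and the 3 constitutive catalytic subunits, between -0.22 and -0.14. The lid was split, with 5 of 8 genes above 0, a median of 0.16 and a range from -1.65 for Psmd12 to 0.42 for Psmd14, the deubiquitinase. Of the base genes that are no ATPases, the ubiquitin receptor Psmd4 was at -0.10 and the scaffolds Psmd1 and Psmd2 at -0.49 and 0.57.

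The 4 largest differences between fresh and tumor-free cells were all below 0, and none was called. Psmd12 encodes a scaffold subunit of the lid. The identifier of its probe set, like those representing Psma3, Psmb4, Psmb7 and Psmc3, has a suffix (_f_at) for probes shared within a gene family. Its signals were 77.8, 60.5 and 51.0 on the tumor-free arrays, 8.20, 5.30 and 45.6 on the fresh arrays, and 55.6, 47.2 and 80.3 on the cultured arrays. Fresh 1 and 2 were near the offset, where a signal has little meaning as a level, while fresh 3 lay just under the lowest tumor-free array. The difference between fresh and tumor-free was -1.65 ± 0.48 (SE, n = 3 arrays per group; adjusted p = 0.118 by limma), and -2.27 without fresh 3 (adjusted p = 0.0101). Without fresh 1 or fresh 2 it was -1.40 or -1.26 (adjusted p = 0.337 and 0.351 by limma). It was -1.08 with the offset at the 40th percentile and -0.25 within the low spike-in class, where fresh 3 stands alone against tumor-free 2 and 3.

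Psmd10, or gankyrin, is a chaperone that helps assemble the base. Its signals were 52.2, 38.0 and 45.2 in tumor-free, 10.2, 10.4 and 41.0 in fresh and 78.5, 57.2 and 70.5 in cultured cells. As for Psmd12, fresh 3 stood with the tumor-free arrays and above the other fresh arrays. The difference of -1.06 ± 0.39 (adjusted p = 0.206 by limma) was -1.54 without fresh 3 (adjusted p = 0.0283). Without fresh 1 or fresh 2 it was -0.82 or -0.83 (adjusted p = 0.491 and 0.506 by limma), with the offset at the 40th percentile -0.69, and within the low spike-in class -0.013.

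Psmg1 encodes a chaperone that assembles the alpha ring. It read 35.1, 45.9 and 37.2 in tumor-free, 23.6, 9.37 and 7.01 in fresh and 41.7, 21.6 and 51.4 in cultured cells. Every fresh array lay below every tumor-free array, and cultured 2 lay below fresh 1. The difference between fresh and tumor-free was -1.23 ± 0.38 (adjusted p = 0.134 by limma).

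Psme3ip1, which is no subunit, read 180, 185 and 161 in tumor-free, 34.8, 54.5 and 102 in fresh and 101, 131 and 139 in cultured cells. All tumor-free arrays were above all others. The difference between fresh and tumor-free was -1.46 ± 0.33 (adjusted p = 0.0529 by limma). In limma it passed the threshold without tumor-free 1 (-1.44, adjusted p = 0.0446) and without fresh 3 (-1.83, adjusted p = 0.0111). It stayed uncalled without tumor-free 2 (adjusted p = 0.205 by limma), tumor-free 3 (0.153) or fresh 2 (0.186), and also without fresh 1. Leaving out cultured 1, 2 or 3 left it uncalled too (adjusted p = 0.0746, 0.0833 and 0.0556 by limma). The differences then ran from -1.52 to -1.15, and within the low spike-in class it was -0.72.

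The count of calls depended on the divergent arrays. Without tumor-free 1, fresh 3 and cultured 3, which leaves 2 arrays per group, 13 of the 49 probe sets were called, 11 of them lower, against 24.6% of all probe sets in that fit. This alternative was chosen after seeing the data.

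**Figure D2:**
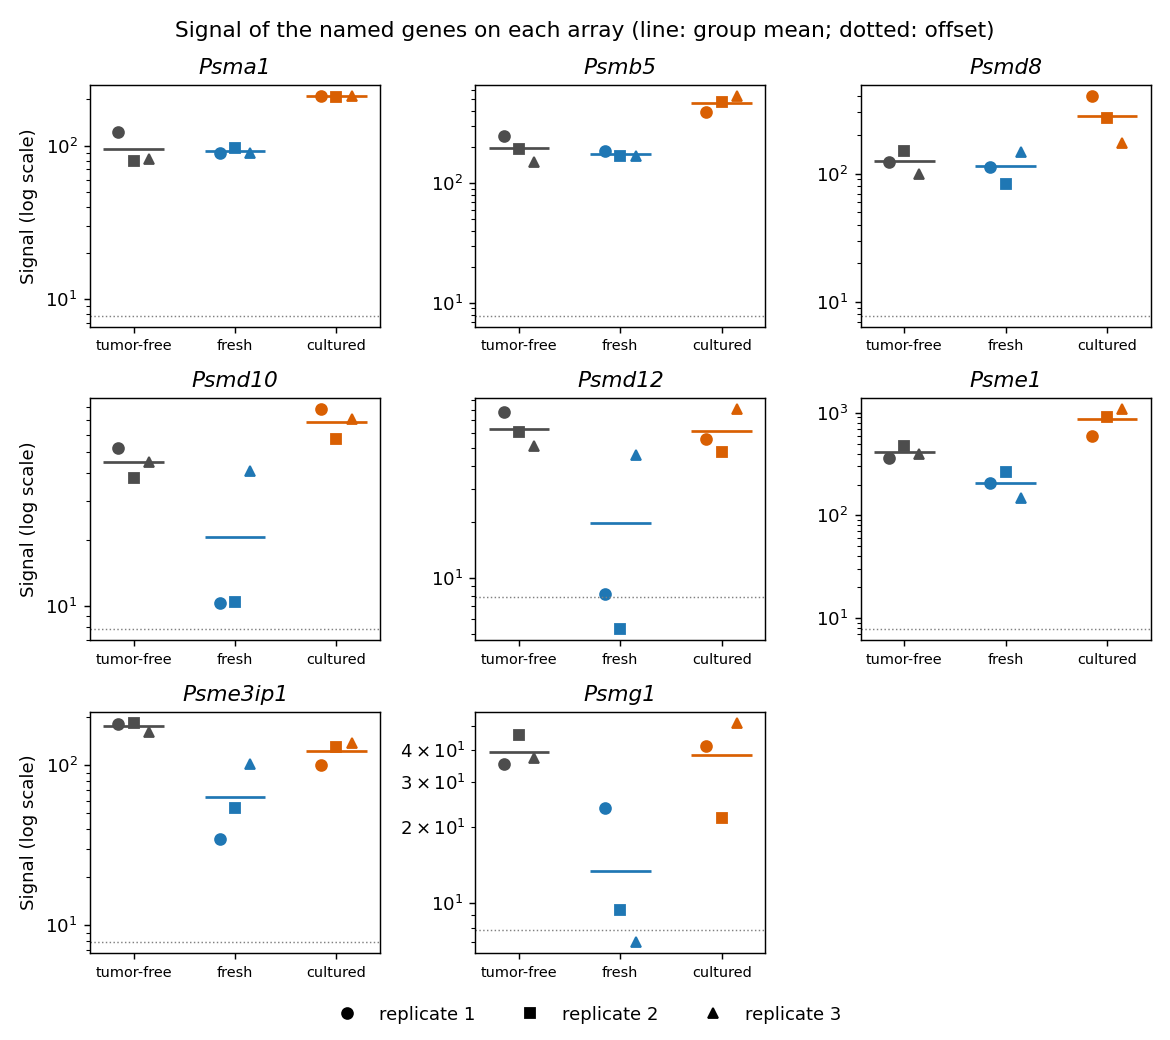
MAS5 signal (log axis) on each of the 9 arrays for 8 genes, with 1 point per array and a line at the mean of each group. They are the genes called in any comparison and the 4 with the largest difference in each. Psme1, Psmb5 and Psma1 have all cultured arrays above all fresh arrays, and fresh 1 and 2 lie far below fresh 3 for Psmd10 and Psmd12.

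The second comparison asks what 24 h in medium did to the cells of tumor-bearing mice. Psme1, Psmb5 and Psma1 were called higher in cultured cells, and no proteasome probe set was called lower. These 3 calls among 49 probe sets are 6.12%, against 2.69% of all probe sets tested (1.52% higher and 1.17% lower). At an unadjusted p under 0.05, 18 were higher (10.1% of all) and 0 lower (6.19% of all). The difference was above 0 for 39 of 49 (79.6%, against 52.3% of all), with a median of 0.47 against 0.02 over all. In 19 of the 49 (38.8%, against 13.4%) every cultured array lay above every fresh array, and in 0 (8.81% of all) every cultured array lay below. Centring each array on its median signal left 32 of 49 above 0, with a median of 0.40 against -0.05 over all.

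Psme1, or PA28 alpha, is part of the cap that opens the core without ATP. Its signals were 365, 477 and 395 in tumor-free, 208, 267 and 149 in fresh and 599, 918 and 1084 in cultured cells. The groups did not overlap: all fresh arrays were lowest and all cultured arrays highest. The mean cultured signal was 4.17 times the fresh mean, and the difference was 2.02 ± 0.30 (adjusted p = 0.0058 by limma). In the limma fit without cultured 3 it was 1.83 (adjusted p = 0.0121). The partner of Psme1 in the cap, Psme2, stands only on 2 probe sets with several symbols and was left out.

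Psmb5 encodes the catalytic subunit with chymotrypsin-like activity, which the inducible Psmb8 can replace. It read 247, 193 and 150 in tumor-free, 185, 169 and 168 in fresh and 389, 480 and 535 in cultured cells. Every cultured array was above all 6 others, and the fresh arrays lay within the tumor-free range. The cultured mean was 2.69 times the fresh mean, a difference of 1.38 ± 0.25 (adjusted p = 0.0158 by limma). It was no longer called by limma without fresh 1, fresh 2 or cultured 2 (adjusted p = 0.0673, 0.0746 and 0.0788), with differences of 1.42, 1.36 and 1.35.

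These values are from the brighter Psmb5 probe set, whose identifier has a suffix (_s_at) for probes that several transcripts can share. A further Psmb5 probe set read 284, 73.5 and 108 in tumor-free, 148, 189 and 106 in fresh and 211, 94.2 and 89.4 in cultured cells, with all 3 groups overlapping. Its difference between cultured and fresh was -0.22 ± 0.48 (adjusted p = 0.880 by limma). The rise of Psmb5 therefore rests on 1 of its 2 probe sets.

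Psma1 encodes an alpha subunit of the outer ring. It read 123, 79.8 and 81.7 in tumor-free, 89.6, 96.0 and 89.9 in fresh and 211, 207 and 210 in cultured cells. The fresh and cultured arrays each lay close together, and the tumor-free arrays spanned the fresh ones. The cultured mean was 2.28 times the fresh mean, a difference of 1.12 ± 0.24 (adjusted p = 0.0318 by limma). Leaving out tumor-free 2 or 3, any fresh array, cultured 1 or cultured 2 ended the call (adjusted p = 0.0507, 0.0543, 0.127, 0.102, 0.0628, 0.0990 and 0.125 by limma), while the difference stayed between 1.11 and 1.15.

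Psmd10 and Psmd12 had differences between cultured and fresh of 1.59 ± 0.39 and 1.59 ± 0.48 (adjusted p = 0.0592 and 0.115 by limma), which were not called. Without fresh 3 the values were 2.07 and 2.22 (adjusted p = 0.00915 and 0.0124 by limma). Without fresh 1 they were 1.35 and 1.35 (adjusted p = 0.210 and 0.318 by limma), and without fresh 2 they were 1.36 and 1.21 (adjusted p = 0.194 and 0.335 by limma). Between fresh 3 and cultured 3, the only arrays of these groups in the low spike-in class, they were 0.68 and 0.72. Every cultured array was above every fresh array for both genes. In cultured cells Psmd12 overlapped with tumor-free cells, and Psmd10 lay above them on every array.

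By role, the alpha ring had the highest median with all arrays in the fit, though not without cultured 3. Of its 7 genes 6 were above 0 (85.7%, against 52% of all genes tested). All cultured arrays were above all fresh arrays for 4 of the 7 (57.1%, against 13.8%). The ring had a median of 0.91 and a range from -0.0036 for Psma6 to 1.15 for Psma7. Without cultured 3 its median was 0.54 and that of the base assembly chaperones 0.78, the highest of the roles. The catalytic subunits had a median of 0.49, with Psmb6 at 0.49 and Psmb7 at 0.04 beside Psmb5; without cultured 3 the median was 0.24, with Psmb6 at 0.24 and Psmb7 turned to -0.34. The other 4 beta subunits, which shape the inner ring, had a median of 0.12 and a range from -0.11 for Psmb1 to 0.70 for Psmb3, and their median was -0.011 without cultured 3. These groups hold 3 to 7 genes, and their differences from each other were not tested.

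In the regulatory particle the 5 tested ATPases had a median of 0.49, from -0.03 for Psmc5 to 1.19 for Psmc6; without cultured 3 the median was 0.15, with 3 of 5 above 0. Psmc6 read 1071, 605 and 653 in tumor-free, 488, 462 and 411 in fresh and 1554, 886 and 813 in cultured cells, with all fresh arrays below all others (adjusted p = 0.0752 by limma). The 3 base genes that are no ATPases were at 0.85 for Psmd1, 0.46 for Psmd4 and 0.02 for Psmd2. The 8 lid genes had a median of 0.23, which was 0.11 without cultured 3. Of these, Psmd12, Psmd8, Psmd7 and Psmd13 were higher in cultured than in fresh cells without overlap (50%, against 13.8% of all genes tested). Psmd6, a lid scaffold, was at -0.47.

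Among the assembly factors, the base chaperones Psmd10, Psmd5 and Psmd9 were at 1.59, 0.75 and 0.06. Of the alpha-ring chaperones, Psmg1 was at 1.14 (adjusted p = 0.156 by limma), Psmg4 at 0.24 and Psmg3 at -0.32. Of the other caps of the core, Psme4 was at 0.50 and Psme3 at -0.37, and neither was called.

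**Figure D3:**
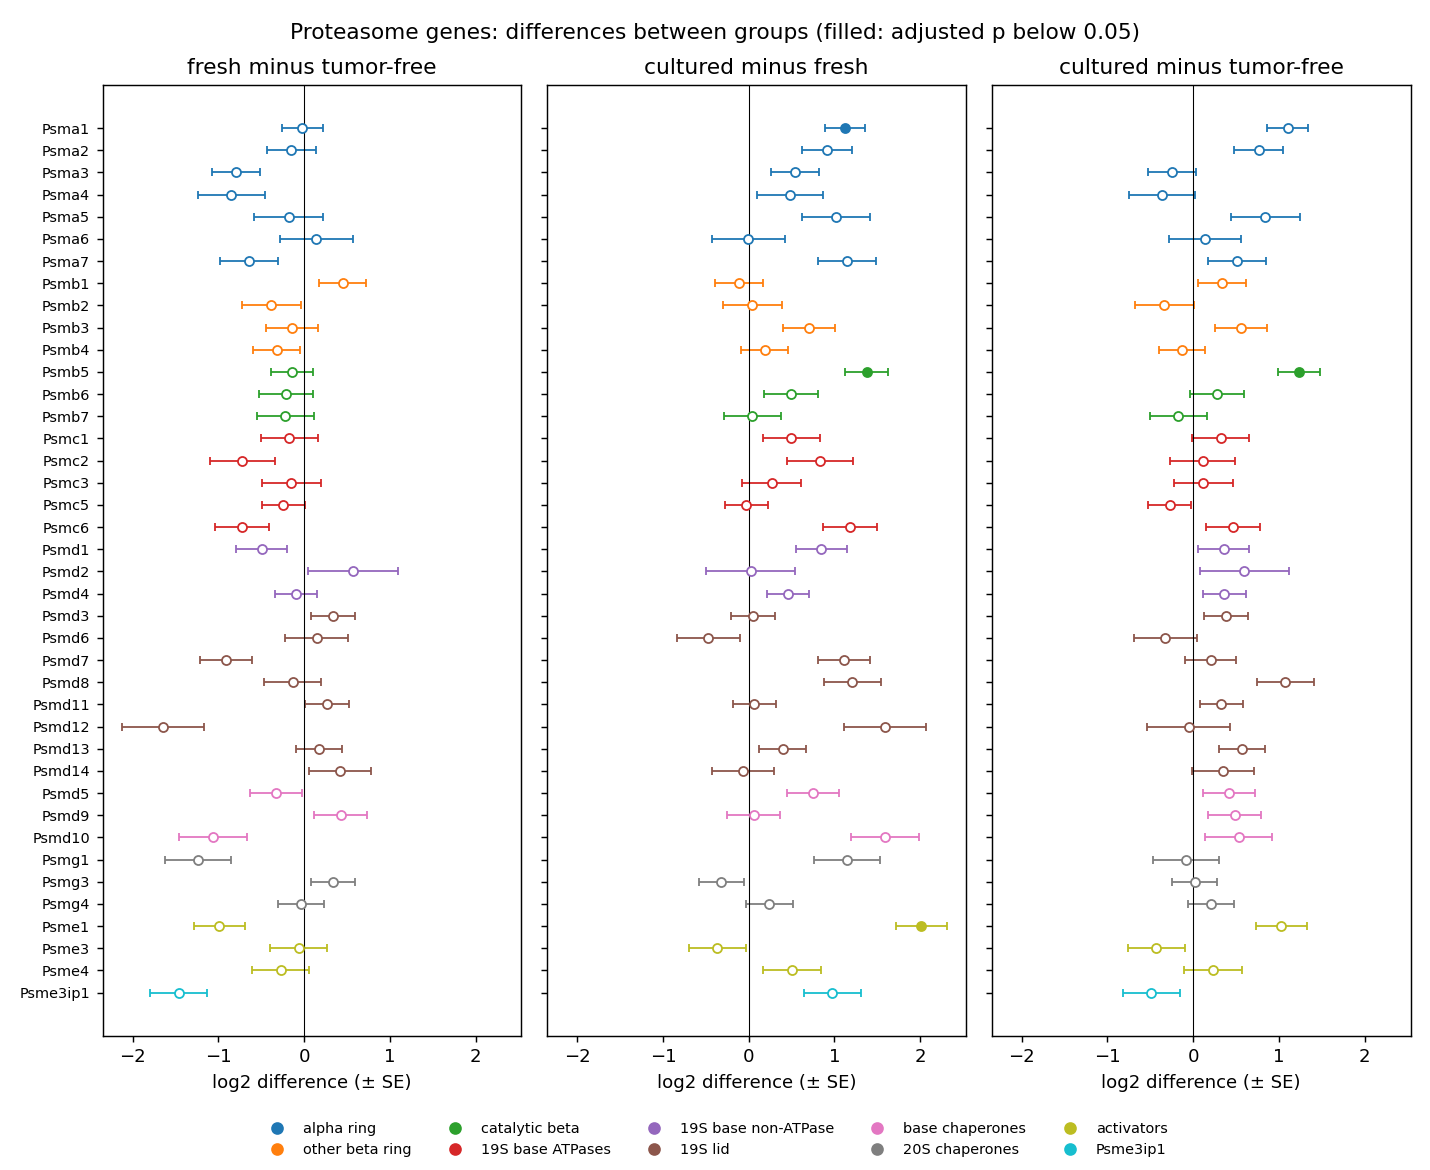
Log2 difference with its standard error for each of the 40 tested proteasome genes, grouped by role, in the 3 comparisons, with called genes marked. Most genes lie below 0 between fresh and tumor-free cells (30 of 40) and above 0 between cultured and fresh cells (33 of 40), and the calls are Psme1, Psmb5 and Psma1 in the latter and Psmb5 between cultured and tumor-free cells.

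Much of the size of the shift lay on cultured 3. This array held the highest of the 9 values for 20 of the 40 genes (50%, against 10.9% of all probe sets tested), and 36 of 40 genes were above their own mean on it. On cultured 1 the highest value was found for 11 genes (27.5%, against 13.9%), and on cultured 2 for 0 (10.3% of all).

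Gene by gene, all 3 cultured arrays were above all fresh arrays for 17 of the 40 genes (42.5%, against 13.8% of all genes tested). For 8 genes only cultured 3 was: Psma6, Psmb2, Psmb4, Psmb7, Psmc3, Psmc5, Psmd14 and Psmd6. No cultured array was above all fresh arrays for Psmd11, Psmd2, Psme3 and Psmg3. The remaining 11 genes had 1 or 2 such arrays.

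The signal on cultured 3 relative to the mean of cultured 1 and 2 differed widely between genes. The ratio was 2.77 for Psma6, 2.71 for Psma5, 2.64 for Psmd6, 2.60 for Psmc2 and 2.49 for Psmc3. It was 0.999 for Psmd4, 0.963 for Psmd1, 0.666 for Psmc6 and 0.514 for Psmd8. Psmd6, for example, read 200, 224 and 231 on the fresh arrays and 86.0, 142 and 300 on the cultured arrays, below all fresh arrays on cultured 1 and 2 and above them on cultured 3.

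Without cultured 3, 35 of the 49 probe sets (71.4%, against 53.8% of all) had a difference between cultured and fresh above 0. Of the 40 genes 30 (75%) did, with a median of 0.30. Over all probe sets the median was 0.05. In that fit 5 of the 49 were called, all higher, against 4.96% of all probe sets. They were Psma1 (1.12), Psmb5 (1.28), Psmc6 (1.36), Psmd8 (1.51) and Psme1 (1.83), with adjusted p of 0.0453, 0.0281, 0.0463, 0.0284 and 0.0121 by limma. The median over the 49 probe sets was 0.24 without this array and 0.47 with it.

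The spike-in classes gave the same direction with unequal size. Within the high class (fresh 1 and 2, cultured 1 and 2) the median over the probe sets was 0.30, and within the low class (fresh 3 against cultured 3) it was 0.72, where the medians of all probe sets were -0.03 and 0.13. The low class sets 1 array against 1, so its value is a difference between those arrays and its calls are not used here. Within the high class 10 of 49 were called, against 12.0% of all, on 2 residual degrees of freedom. Without tumor-free 1, fresh 3 and cultured 3, 14 of 49 were called, 13 of them higher, against 15.7% of all.

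**Figure D4:**
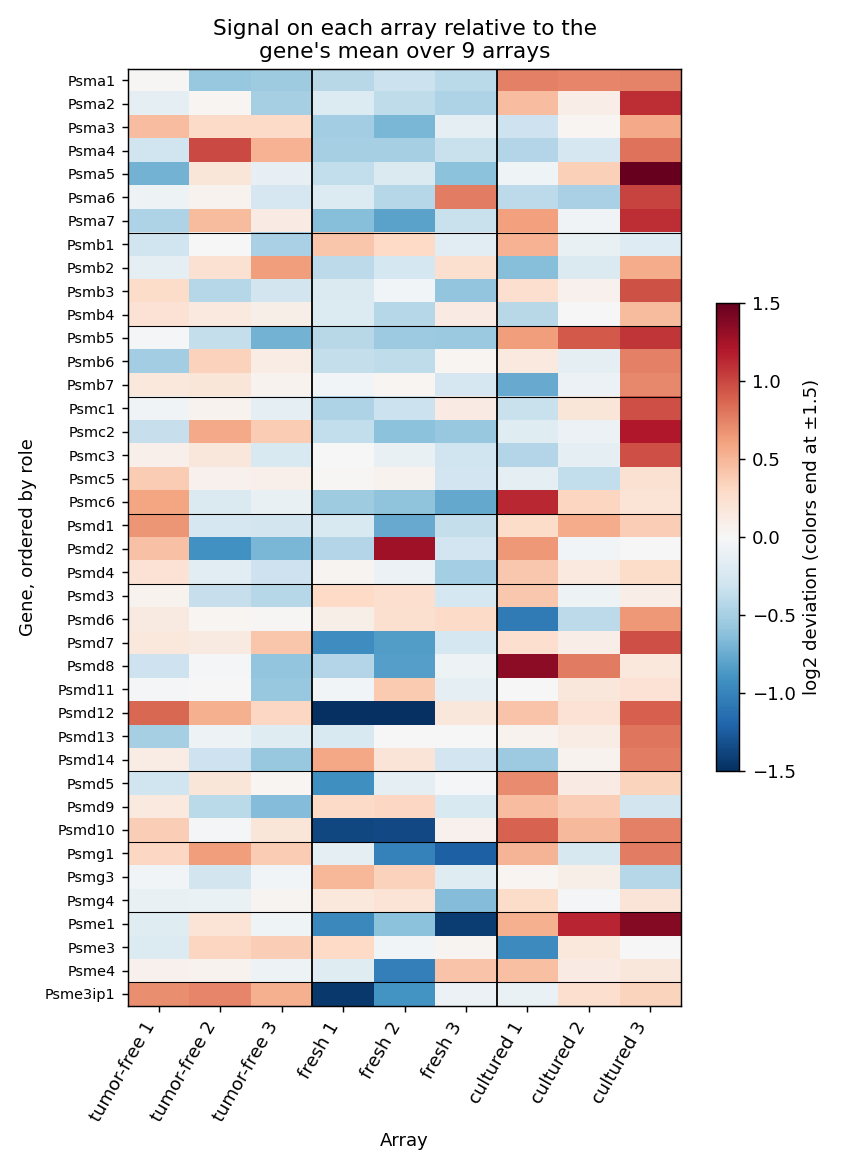
Deviation of the 40 tested proteasome genes from their own mean (log2 scale, color) by array, with genes ordered by role. Cultured 3 is high for 36 of 40 genes, and cultured 1 and 2 are high for only part of them.

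Of the genes with several tested probe sets, Psmb1 and Psmd11 were uneven in this comparison. Psmb1, a beta subunit without an active site, was at -0.11 on its brightest probe set, which read 326, 300 and 216 in fresh and 351, 223 and 211 in cultured cells. A further probe set read 208, 177 and 159 in fresh and 332, 300 and 281 in cultured cells, without overlap, at 0.73 ± 0.24 (adjusted p = 0.156 by limma). The last, dim one was at -0.33.

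Psmd11, a scaffold of the lid, was at 0.06 on its brightest probe set, with signals of 439, 595 and 408 in fresh and 455, 508 and 528 in cultured cells. A further one was at 1.03 ± 0.28 (adjusted p = 0.0825 by limma), with 52.8, 51.5 and 86.8 in fresh and 122, 115 and 173 in cultured cells, and the last was at 0.06. For Psmb4, Psmc3 and Psmg3 the probe sets lay on the same side of 0, at 0.13 and 0.19, at 0.16 to 0.47, and at -0.32 and -0.44.

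**Figure D5:**
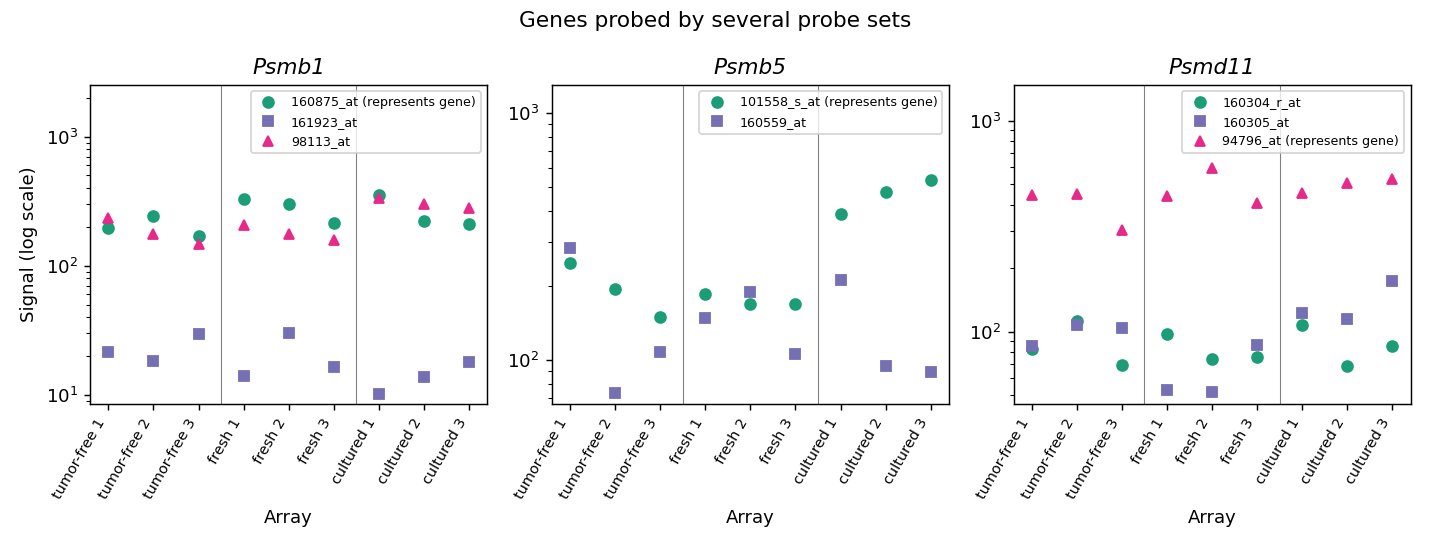
MAS5 signal (log axis) on each array for the tested probe sets of Psmb1, Psmb5 and Psmd11, with 1 symbol shape per probe set. For Psmb5 the brighter probe set has all cultured arrays above all others, and the other probe set overlaps in all groups.

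The third comparison sets cultured cells of tumor-bearing mice against uncultured cells of tumor-free mice, so tumor and culture cannot be told apart in it. It shares its arrays with both comparisons above. Of the 49 probe sets 1 was called, that of Psmb5, which is 2.04% against 1.23% of all probe sets tested (0.587% higher and 0.644% lower). At an unadjusted p under 0.05, 6 were higher (7.28% of all) and 0 lower (6.82% of all). The difference was above 0 for 34 of 49 (69.4%, against 54.2%), with a median of 0.28 against 0.05. In 11 (22.4%, against 10.3%) all cultured arrays were above all tumor-free arrays, and in 2 (4.08%, against 8.2%) below.

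Psmb5 was 1.23 ± 0.25 higher in cultured than in tumor-free cells (adjusted p = 0.0411 by limma), 2.38 times the tumor-free mean. Leaving out any array but tumor-free 1 ended the call, with adjusted p from 0.0533 to 0.195 by limma and differences from 1.06 to 1.36, and the further Psmb5 probe set was at -0.11. The values for Psma1, Psmd8 and Psme1 were 1.10 ± 0.24, 1.07 ± 0.33 and 1.03 ± 0.30 (adjusted p = 0.0572, 0.179 and 0.141 by limma), and none was called.

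Psmd8, a small lid subunit, read 123, 151 and 99.7 in tumor-free, 112, 83.4 and 147 in fresh and 403, 271 and 173 in cultured cells. All cultured arrays were above all others, with cultured 3 the lowest of them. By role, the medians against tumor-free cells were 0.51 for the alpha ring, 0.48 for the base assembly chaperones and 0.34 for the lid. They were 0.36 for the base genes that are no ATPases, 0.28 for the catalytic subunits and 0.23 for the activators. The ATPases were at 0.12, the other beta subunits at 0.10 and the alpha-ring chaperones at 0.02. Without cultured 3, 30 of the 49 probe sets were above 0 (61.2%, against 55.4% of all), the median was 0.19 against 0.08, and 0 were called. Within the high spike-in class the median over the 49 probe sets was 0.060 (against 0.10 over all), with tumor-free 1 alone in its group, and within the low class, with cultured 3 alone, 0.51.

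The inducible catalytic subunits, which replace the constitutive ones in the immunoproteasome, were not called in any comparison (0 of 3 each time by limma). At an unadjusted p under 0.05, 1 was lower between fresh and tumor-free cells and 2 were higher between cultured and fresh cells. Between cultured and fresh cells Psmb9 was at 1.78 (adjusted p = 0.110), Psmb8 at 1.40 (0.148) and Psmb10 at 0.91, by limma. Between fresh and tumor-free cells their median was -0.93. The sum of the 3 signals was 759, 1955 and 1486 on the tumor-free arrays, 693, 650 and 639 on the fresh and 940, 1423 and 3486 on the cultured arrays, so cultured 3 was also the highest here.

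The list of the ubiquitin system and proteasome partners held 25 symbols, with both older and newer names for some genes. Of its genes, 13 were on the array and tested, and 0 were called in each comparison. At an unadjusted p under 0.05, 3 passed between fresh and tumor-free cells, 1 between cultured and fresh and 0 between cultured and tumor-free. Their medians were -0.03, 0.18 and 0.18. Ecpas, a scaffold that holds the core and the regulatory particle together, was at -1.09 between fresh and tumor-free cells (adjusted p = 0.196) and at 1.62 between cultured and fresh (0.0572), by limma. Nfe2l2, the transcription factor that acts at antioxidant response elements, was at 0.997 and -0.62 in the same comparisons.

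Markers of other cells moved between the same groups, and their part in the proteasome values was not tested. All 5 pancreas acinar genes on the array were called higher in fresh than in tumor-free cells and lower in cultured than in fresh cells. The sum of their signals was 320 to 386 on the tumor-free, 5207 to 8559 on the fresh and 348 to 721 on the cultured arrays. The granulocyte genes summed to 28779 to 45193, 41957 to 52736 and 14745 to 40178, and 1 of 8, the myeloid granule enzyme Mpo, fell in culture (-3.68, adjusted p = 0.0409 by limma). On tumor-free 1, Camp read 150 and Ngp 228, against 8809 and 8234 on tumor-free 2, while S100a8 and S100a9 were highest on tumor-free 1 of that group. Gene by gene, all 8 granulocyte genes were above 0 between fresh and tumor-free cells (median 1.55, from 0.07 for S100a8 to 3.03 for Mpo). The groups did not overlap for 3 (37.5%, against 9.19% of all genes tested). Between cultured and fresh cells 7 of 8 were below 0 (median -1.46), 5 without overlap (62.5%, against 9.3%). These signs are opposite to those of most proteasome genes in the same comparisons.

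Erythroid genes summed to 480 to 2189 on the tumor-free, 4645 to 6333 on the fresh and 677 to 6923 on the cultured arrays, where cultured 3 had the highest and cultured 2 the lowest value, and 0 of 4 tested genes were called by limma (unadjusted p under 0.05 for 3 between fresh and tumor-free and 3 between cultured and fresh cells). Genes of dividing cells summed to 1724 to 1840, 1842 to 2357 and 947 to 1856, with 0 of 12 called and a median of -0.87 between cultured and fresh cells, where 4 had an unadjusted p under 0.05. The 6 genes that fit the CD11b sort were all on the array, and 0 were called (unadjusted p under 0.05 for 2, 1 and 0 in the 3 comparisons). They summed to 5846 to 9162 on the tumor-free, 6684 to 8060 on the fresh and 9605 to 13258 on the cultured arrays. Between fresh and tumor-free cells 4 of the 6 were above 0, and Cd68 and Csf1r were at -0.69 and -0.73. Between cultured and fresh cells 5 of the 6 were above 0, with Cd68 at 0.67 and Csf1r at 0.88. B cell genes summed to 137 to 1075, 310 to 348 and 257 to 654. The sums of the T cell, NK cell and platelet genes were at most 231, 189 and 53.8 on any array, and 0 of their tested genes were called, as for B cells; at most 1 gene of each list had an unadjusted p under 0.05 in a comparison. No defining marker was listed at exactly 0 on an array.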

How the data were processed

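The proteasome probe sets and the gene lists were chosen with earlier results of these data known. Each deposited value is the intensity of 1 probe set on 1 array, made with MAS5 per the submitters' processing notes, whose version and settings the sources used here do not give. The trimmed mean signal was 100.06 to 100.08 on every array, so the arrays were on a common scale as deposited, and no further scaling was applied. Between 16.6% and 23.6% of an array's values were under the offset. Without detection calls, a dim signal cannot be told from background, and 3 arrays per group limit the precision.

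Signals were transformed as log2(signal + 7.83), an offset at the 20th percentile of the table. Of 12488 probe sets, 66 controls and the dimmest 30% by mean were left out, and 8695 were tested. A linear model with 3 group means was fitted in limma 3.58.1 (R 4.3.3) with an intensity trend and 6 residual degrees of freedom. Comparisons were two-sided, with Benjamini-Hochberg adjustment over the 8695 probe sets. The model was also run on simulated data with independent noise and no divergent arrays, so that run does not bear on the effect of such arrays.

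Gene names came from the platform annotation: all 55 proteasome probe sets and 10839 of 10855 probe sets with 1 symbol matched RefSeq (GRCm38.p6) by gene ID, which changed 0 symbols. Array-by-array values are given for genes called in any comparison and for the 4 with the largest difference in each. The other proteasome genes are given as counts, ranges and medians, with examples named after their values were seen: Psmc6, Psmd6, Psmb1 and Psmd11 array by array. Alternatives were other scalings, offsets, filters, variance models and weights, spike-in class terms, a replicate block and leaving arrays out. Replicate numbers were not treated as pairs. Deviations of same-numbered arrays correlated at -0.20 to 0.26 over all comparisons. Between cultured and fresh cells these values were 0.165, 0.029 and 0.259, against -0.282 to 0.227 for arrays of different number. With 3 arrays per group, such values cannot settle whether same-numbered arrays are related.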

Additional observations from a re-analysis of the deposited data

How the results depend on the processing

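Over 13 results for single genes and 300 alternatives, 237 kept direction and side of the threshold, 24 lost the call, 37 gained it and 2 turned direction. The latter were the further Psmb5 probe set, at -0.22 between cultured and fresh and -0.11 between cultured and tumor-free cells. Leaving aside the low spike-in class, Psme1 between cultured and fresh cells was called under every alternative, with differences from 1.62 to 2.26. Within the low class, which sets 1 array against 1, its difference was 2.80. The cause of the other moves was not tested.

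Between fresh and tumor-free cells 0 probe sets were called as reported. The count was 1 with the offset at the 40th percentile, the replicate block or the spike-in class as a block, 18 with array weights (36.5% of all probe sets), 2 within the high and 7 within the low spike-in class (4.85% and 22.7% of all), and 13 without the 3 divergent arrays (24.6%). It was 0 to 3 with 1 array left out, the most without fresh 3. Between cultured and fresh cells 3 were called. The count was 14 with array weights (21.9% of all), 8 with the spike-in block (6.39%), 10 within the high and 18 within the low class (12.0% and 15.8%), 1 of the 18 lower, 14 without the 3 divergent arrays (15.7%), and 1 to 6 with 1 array left out. It was 1 without fresh 1, fresh 2 or cultured 2, 5 without tumor-free 1 or cultured 3 and 6 without fresh 3.

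Between cultured and tumor-free cells 1 was called. The count was 0 with median centring, without the intensity trend, with the replicate block, within the high class and with only the arrays of both groups. It was 2 with the offset at the 40th percentile, the lowest 50% left out or the spike-in block, 6 with array weights (16.0% of all), 15 within the low class (19.9%), 8 without the 3 divergent arrays (20.9%), and 0 to 2 with 1 array left out. Within the low class fresh 3 and cultured 3 stand alone and the spread is that between tumor-free 2 and 3, and within the high class tumor-free 1 stands alone. Counts from groups of 1 array rest on that array, which is assumed to vary like the others. With the replicate block Psmb5, Psmc6 and Psme1 were called between cultured and fresh cells, so Psmc6 was gained and Psma1 lost (adjusted p = 0.0523 by limma). Median differences between cultured and fresh cells were 0.72 within the low class and 0.24 to 0.55 with 1 array left out, the lowest without cultured 3. Between cultured and tumor-free cells the medians were 0.060 (high class), 0.51 (low class) and 0.19 to 0.37 with 1 array left out. Between fresh and tumor-free cells all alternatives kept the median below 0, though within the low class it was -0.20 beside -0.14 over all probe sets.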
